A study of Mus musculus with 20 samples.

Results

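Complex I (NADH:ubiquinone oxidoreductase) opens the mitochondrial respiratory chain, and 36 of its nuclear-encoded genes were followed in the mouse heart after 2 kinds of ischemic injury. The 36 genes were taken by name from a deposited table of 63318 genes, with no threshold on measured values. All 36 were matched by Ensembl ID and all 36 passed the filter on low counts. The libraries hold poly(A) RNA of heart tissue in 4 groups of 4 short-read libraries. Myocardial infarction (MI) hearts were taken 72 h after surgery and were compared with their own sham operation (MISham). The second injury, ischemia-reperfusion (IR), combined 40 min of "LCA", which the labels do not spell out, with 72 h of reperfusion and was set against a separate sham group (IRSham). Per the labels, MI and MISham tissue included the infarct core and the region around it, whereas IR and IRSham tissue was core only; region and injury type cannot be told apart. Strain, age and sex of the mice are not given in the sources used here, nor is it stated whether each library came from its own animal. All p-values therefore describe spread among libraries, which may be technical.

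Complex I takes electrons from NADH, passes them along iron-sulfur clusters to ubiquinone and uses the energy to pump protons across the inner mitochondrial membrane. Its peripheral arm consists of an N module, which oxidizes NADH, and a Q module, which reduces ubiquinone; its membrane arm, with a proximal and a distal part, pumps the protons. Core subunits carry the chemistry, accessory subunits surround and stabilize them, and a further set of core subunits is encoded by mitochondrial DNA. Heart muscle is among the tissues richest in mitochondria.

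Library totals ran from 57.2 to 63.1 M counts in MI, from 24.3 to 27.6 M in MISham, from 26.2 to 31.8 M in IR and from 25.5 to 29.8 M in IRSham, so that the MI libraries were the deepest. CPM are counts scaled to the library total with TMM factors, and log2 fold changes of counts and their adjusted p-values were fitted with edgeR (quasi-likelihood, Benjamini-Hochberg over 19741 genes). A gene was called higher or lower at an adjusted p under 0.05. All 8 cardiomyocyte markers were detected in every library, with Myh6, the main myosin heavy chain of the adult mouse heart, between 146424 and 1088886 counts.

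The summed level of the 36 genes was lower in both injuries. It was 2671, 2602, 3694 and 3034 CPM in MI libraries 1 to 4, against 9689, 10613, 9421 and 10624 CPM in MISham. In IR it was 4099, 2602, 4032 and 2643 CPM, against 9507, 9961, 9002 and 9213 CPM in IRSham. Every injured library thus lay below every sham library. Within IR, libraries 1 and 3 lay above libraries 2 and 4, an order seen in 35 of the 36 genes taken singly. In MI, library 3 held the highest value for 35 of the 36 genes. By group means on the log2 scale, 29.5% of the sham level was left in MI and 34.7% in IR.

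**Figure D1:**
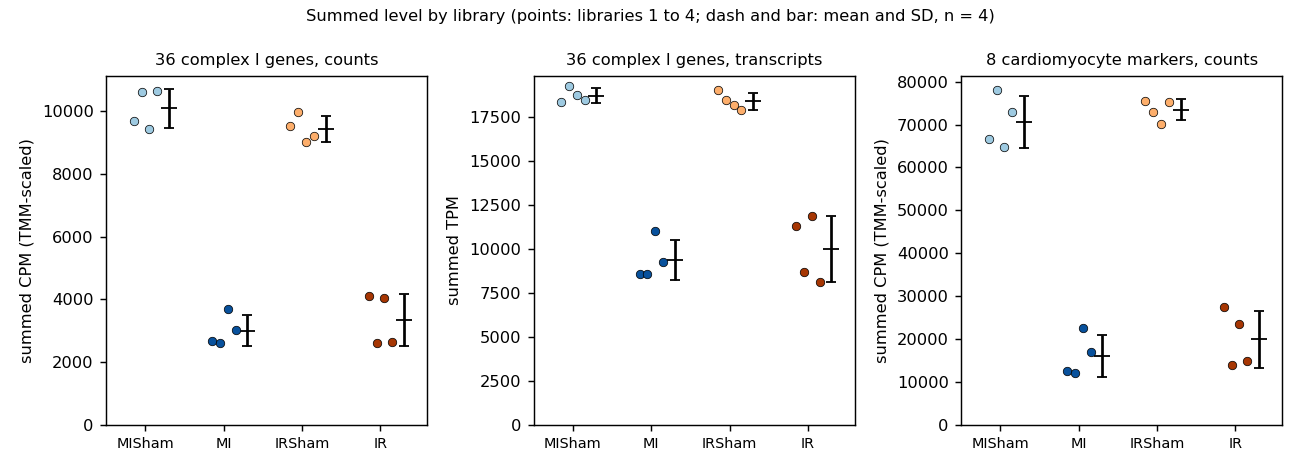
Summed level of the 36 complex I genes in CPM (left) and in TPM (middle), and of 8 cardiomyocyte markers in CPM (right), by group; each point is 1 library, and the dash with its bar gives the mean and SD of 4 libraries. In all 3 panels every injured library lies below every sham library, and IR libraries 1 and 3 lie above IR libraries 2 and 4.

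Taken one by one, 35 of the 36 genes were lower in MI than in MISham, each of the 35 by at least 2-fold. Over all genes tested, 30.2% were lower and 16.4% were lower by at least 2-fold. All 36 fold changes were negative and none was called higher, beside 34.8% of all genes. The median log2 fold change of the 36 genes was -1.61, beside 0.08 over all genes tested, and the range was -2.10 (Ndufs1) to -1.07 (Ndufb9). In IR all 36 were lower than in IRSham by at least 2-fold, beside 28.2% of all genes lower and 13.1% lower by at least 2-fold. Here too all 36 fold changes were negative and none was called higher, beside 29.5% of all genes. Their median log2 fold change in IR was -1.47, beside 0.03 over all genes, and the range was -2.12 (Ndufb9) to -1.02 (Ndufc2). For each of the 36 genes all 4 MI libraries lay below all 4 MISham libraries, which held for 28.6% of all genes, and all 4 IR libraries lay below all 4 IRSham libraries, which held for 25.4% of all genes. Among the called genes edgeR's adjusted p ran from 7.12e-09 to 0.000379 in MI and from 3.28e-08 to 0.00975 in IR.

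**Figure D2:**
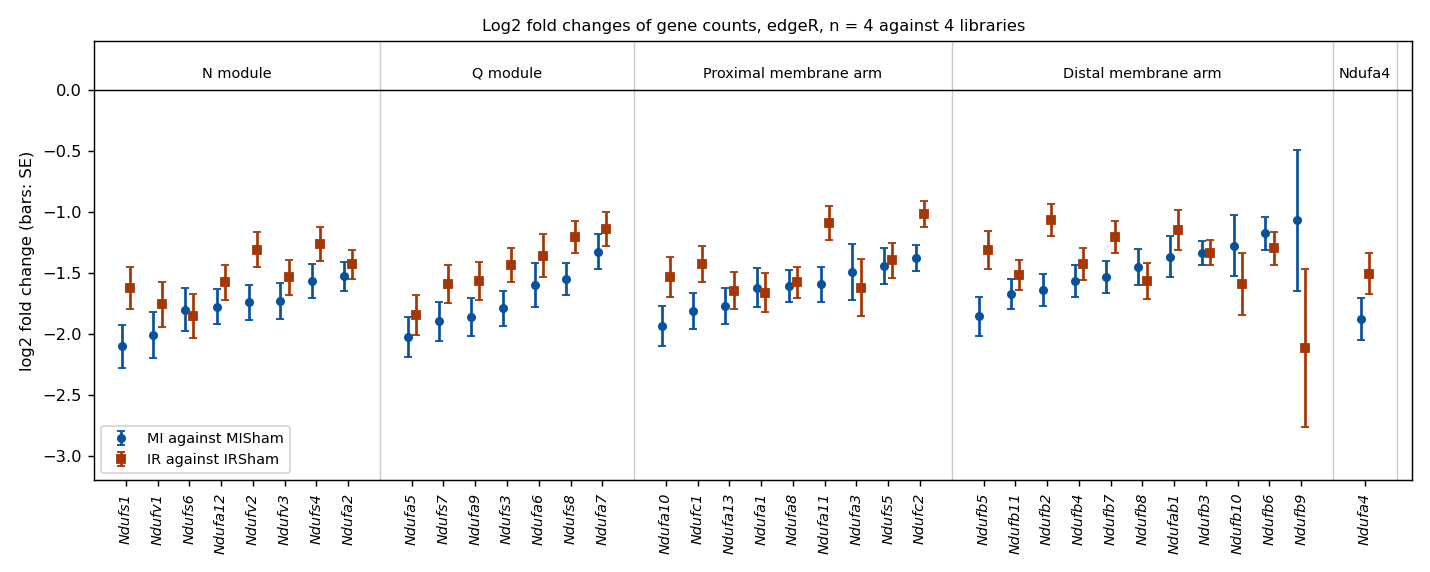
Log2 fold changes of the 36 genes in counts, MI against MISham (circles) and IR against IRSham (squares), ordered within each arm of the complex by the MI value; bars are standard errors, from 4 against 4 libraries. All values lie below 0, and the widest bars belong to Ndufb9, which had very few counts.

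The N module holds the NADH-binding end of the complex. Its 8 members fell by a median of 1.76 on the log2 scale in MI and of 1.56 in IR. Ndufs1, the largest core subunit and a carrier of iron-sulfur clusters, showed the largest fold change of the 36 genes in MI. It stood at 163, 159, 226 and 177 CPM in MI and at 721, 849, 721 and 826 CPM in MISham. The IR libraries gave 278, 152, 270 and 165 CPM, and the IRSham libraries 680, 664, 633 and 685 CPM. Neither pair of groups overlapped, and the log2 fold change was -2.10 ± 0.18 (SE) in MI (edgeR, adjusted p = 3.02e-08) and -1.62 ± 0.17 in IR (edgeR, adjusted p = 7.19e-07).

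Ndufv1, which binds NADH and the flavin cofactor, followed with -2.01 ± 0.19 (SE) in MI and -1.76 ± 0.19 in IR. Ndufv2, its iron-sulfur partner, had -1.74 ± 0.14 in MI and -1.31 ± 0.14 in IR. Ndufs6, an accessory subunit known to bind zinc, had -1.80 ± 0.18 and -1.85 ± 0.18, and the accessory subunits Ndufa12 and Ndufs4 had -1.78 and -1.57 in MI and -1.58 and -1.26 in IR. Ndufv3, an accessory subunit and by summed TPM the most abundant N module gene, stood at 65.9, 66.4, 88.8 and 80.9 CPM in MI and at 259, 256, 237 and 250 CPM in MISham. Its IR values were 95.2, 63.3, 95.3 and 59.8 CPM, against 225, 259, 208 and 217 CPM in IRSham. The groups did not overlap in either injury, with log2 fold changes of -1.73 ± 0.15 and -1.54 ± 0.15.

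Ndufa2, an accessory subunit with a thioredoxin-like fold, had the smallest change of the N module in MI. It stood at 83.6, 86.1, 112 and 97.9 CPM in MI and at 267, 279, 258 and 291 CPM in MISham. The IR libraries held 116, 81.3, 120 and 86.6 CPM, against 270, 288, 272 and 256 CPM in IRSham. Even here the highest injured library lay well below the lowest sham library, and the log2 fold changes were -1.53 ± 0.12 (SE) in MI and -1.43 ± 0.12 in IR.

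The 7 members of the Q module had a median log2 fold change of -1.79 in MI and -1.44 in IR. Ndufa5, an accessory subunit at the base of the peripheral arm, was both the most abundant of them by summed TPM and the one with the largest change. It stood at 102, 96.1, 141 and 110 CPM in MI and at 433, 501, 422 and 473 CPM in MISham. Its IR values were 139, 91.3, 158 and 93.4 CPM, against 438, 468, 401 and 425 CPM in IRSham. All injured libraries were below all sham libraries, with log2 fold changes of -2.03 ± 0.16 (SE) in MI (edgeR, adjusted p = 2.14e-08) and -1.85 ± 0.16 in IR (edgeR, adjusted p = 1.25e-07).

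Ndufs7 and Ndufs8, core subunits that carry the last iron-sulfur clusters before ubiquinone, had -1.90 ± 0.16 and -1.55 ± 0.13 in MI, and -1.59 ± 0.16 and -1.21 ± 0.13 in IR. The core subunit Ndufs3 had -1.79 and -1.44, Ndufa9, an accessory subunit that holds a nucleotide cofactor, had -1.86 and -1.57, and the accessory subunit Ndufa6 had -1.60 and -1.36. Ndufa7, a small accessory subunit of the Q module, had the smallest change. It stood at 61.7, 60.9, 83.5 and 72.4 CPM in MI, against 168, 175, 167 and 188 CPM in MISham. In IR the values were 97.9, 64.4, 84.9 and 57.9 CPM, against 182, 178, 161 and 152 CPM in IRSham. The groups were apart in both injuries, at log2 fold changes of -1.33 ± 0.14 (SE) and -1.14 ± 0.14.

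The proximal membrane arm was represented by 9 accessory subunits, with a median log2 fold change of -1.61 in MI and -1.53 in IR. Ndufa10, the largest accessory subunit of this arm and a relative of nucleoside kinases, changed most in MI. It stood at 144, 140, 194 and 166 CPM in MI, against 600, 651, 572 and 641 CPM in MISham. The IR libraries gave 252, 137, 213 and 141 CPM, against 548, 558, 514 and 529 CPM in IRSham. The gap between injured and sham libraries was wide in both injuries, and the log2 fold changes were -1.94 ± 0.16 (SE) and -1.53 ± 0.16.

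Ndufa3, a small single-pass membrane subunit, was the most abundant gene of this arm by summed TPM. It stood at 59.3, 49.5, 81.9 and 67.2 CPM in MI, against 175, 191, 192 and 168 CPM in MISham, and its log2 fold change was -1.49 ± 0.23 (SE). After IR it measured 80.7, 32.7, 67.0 and 38.8 CPM, against 160, 175, 159 and 182 CPM in IRSham, and its log2 fold change was -1.62 ± 0.23. The groups did not overlap, but the IR libraries were spread more widely than for most members.

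Ndufc2, a small membrane subunit, changed least in MI. It stood at 50.1, 51.9, 69.2 and 61.8 CPM in MI, against 143, 158, 132 and 170 CPM in MISham. IR libraries had 80.8, 75.0, 76.1 and 65.3 CPM, against 158, 159, 150 and 135 CPM in IRSham. Injured and sham libraries were again apart, at log2 fold changes of -1.38 ± 0.11 (SE) and -1.02 ± 0.11. The remaining accessory subunits of the arm, Ndufa1, Ndufa8, Ndufa11, Ndufa13, Ndufs5 and Ndufc1, had values between -1.44 (Ndufs5) and -1.81 (Ndufc1) in MI and between -1.09 (Ndufa11) and -1.66 (Ndufa1) in IR. Ndufa13 is also known as GRIM-19, and Ndufs5 and Ndufa8 belong to the subunits that face the intermembrane space.

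The distal membrane arm had 11 members, with a median log2 fold change of -1.45 in MI and -1.33 in IR. Ndufb5, an accessory membrane subunit, changed most in MI, from 268, 301, 256 and 329 CPM in MISham to 71.2, 70.0, 96.4 and 80.6 CPM in MI. The IR values were 139, 82.3, 110 and 79.4 CPM, against 245, 289, 241 and 245 CPM in IRSham, of which library 2 lay apart from the other 3. The log2 fold changes were -1.86 ± 0.16 (SE) and -1.31 ± 0.16, with no overlap in either injury.

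Ndufb8, an accessory membrane subunit whose protein is a common marker of assembled complex I, was the most abundant distal gene by summed TPM. It stood at 67.8, 64.3, 93.6 and 77.0 CPM in MI, against 215, 219, 211 and 181 CPM in MISham. IR libraries measured 75.9, 54.3, 86.5 and 51.6 CPM, against 191, 201, 198 and 206 CPM in IRSham. Both comparisons were free of overlap, at log2 fold changes of -1.45 ± 0.15 (SE) and -1.57 ± 0.15.

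Ndufb9, the distal subunit with the LYR motif, was the 1 gene not called in MI by edgeR (log2 fold change -1.07 ± 0.58 (SE), adjusted p = 0.116). It was also the gene with the fewest reads: 21, 15, 18 and 15 in MI and 11, 12, 9 and 18 in MISham. The IR libraries held 0, 1, 4 and 12 reads and the IRSham libraries 13, 15, 15 and 13. In summed TPM the same gene was among the most abundant members, at 333, 322, 400 and 350 in MI and at 745, 801, 745 and 765 in MISham. Its level was thus nearly lost in the counts and well covered in the transcript table, where its log2 fold change was -1.12 in MI (limma, adjusted p = 3.25e-07) and -1.03 in IR, and no overlap was seen. The count-based values of this gene rest on a handful of reads: its IR change of -2.12 ± 0.65 (SE; edgeR, adjusted p = 0.00975) became -3.40 without IR library 4, which held 12 of the IR reads.

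The other 8 distal genes had values between -1.17 (Ndufb6) and -1.68 (Ndufb11) in MI and between -1.07 (Ndufb2) and -1.59 (Ndufb10) in IR. Ndufab1, the mitochondrial acyl carrier protein, which also serves fatty acid synthesis inside mitochondria, had -1.37 ± 0.17 (SE) and -1.15 ± 0.17. Ndufb3, Ndufb4 and Ndufb7, accessory membrane-arm subunits, had -1.34, -1.57 and -1.54 in MI and -1.33, -1.43 and -1.21 in IR.

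Ndufa4, purified with complex I and in later work assigned to cytochrome c oxidase (complex IV), was the most abundant of the 36 genes in summed TPM. It stood at 170, 167, 252 and 197 CPM in MI, against 692, 753, 673 and 766 CPM in MISham. In the IR libraries it reached 302, 173, 264 and 171 CPM, against 656, 687, 632 and 609 CPM in IRSham. It fell with the rest, without overlap, at log2 fold changes of -1.88 ± 0.17 (SE) in MI (edgeR, adjusted p = 6.50e-08) and -1.51 ± 0.17 in IR (edgeR, adjusted p = 1.11e-06). Its paralog Ndufa4l2, a gene known to be induced by hypoxia, moved the other way: it rose from between 20.2 and 21.9 CPM in MISham to between 27.5 and 32.1 CPM in MI (log2 fold change 0.52 ± 0.09, SE; edgeR, adjusted p = 4.98e-05). In IR it also rose, by less and with overlap, from between 22.8 and 25.4 CPM to between 24.6 and 32.8 CPM (0.22 ± 0.09; edgeR, adjusted p = 0.0446).

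**Figure D3:**
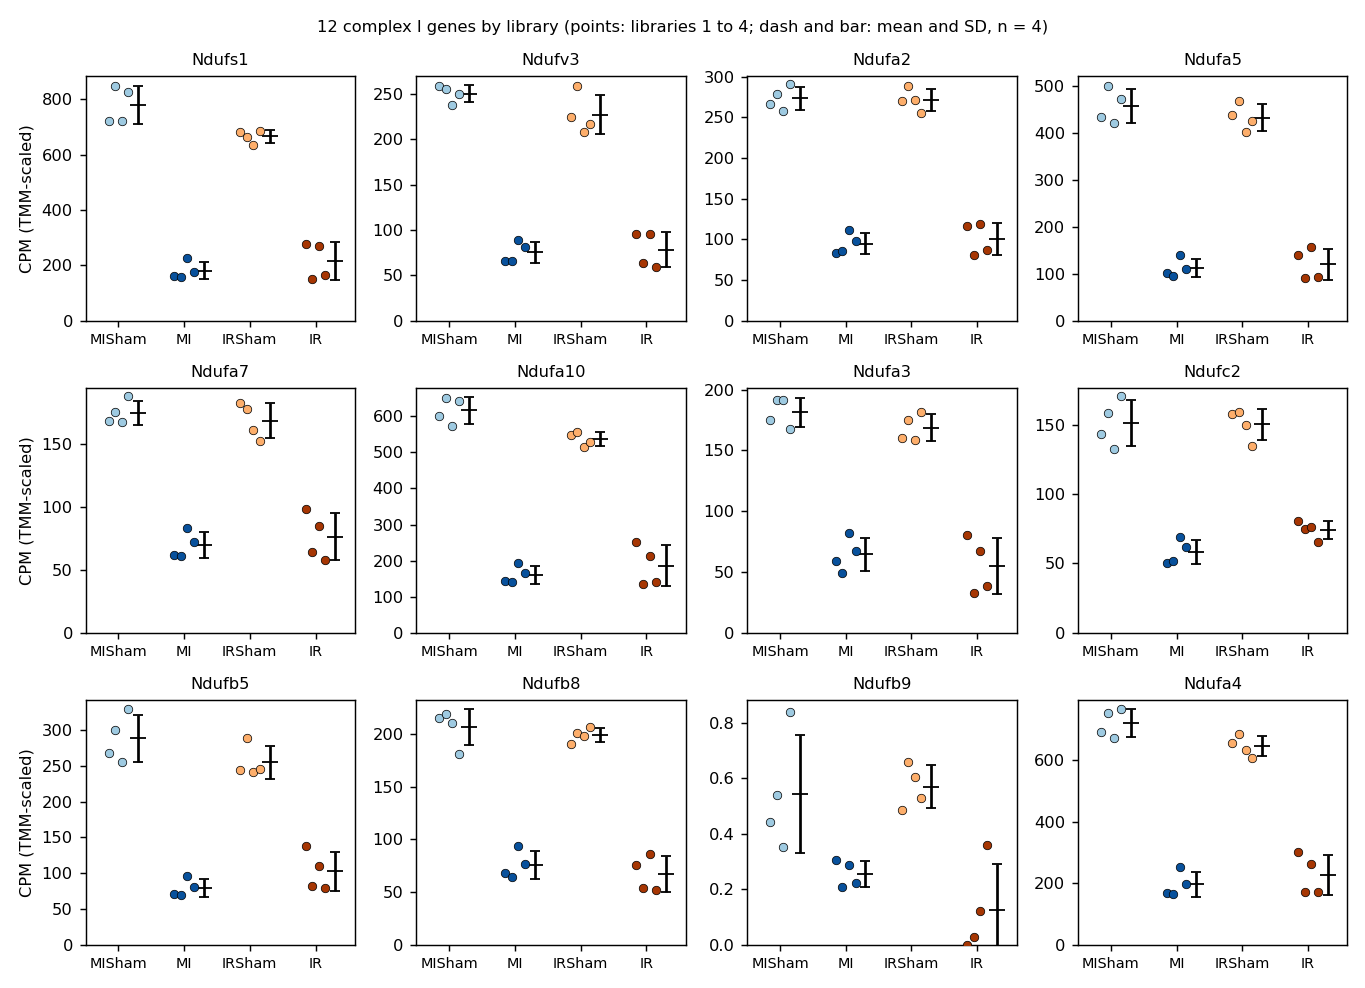
CPM of 12 genes by group: in each arm the most abundant gene by summed TPM and those with the largest and the smallest MI change, and Ndufa4; points are libraries, and the dash with its bar is the mean and SD of 4 libraries. For each of the 12 genes the libraries of an injury lie below those of its own sham group; the Ndufb9 panel spans less than 1 CPM, and its lower SD bar in IR runs below 0.

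Core and accessory genes fell alike in direction. The 6 core members had a median log2 fold change of -1.84 in MI and -1.51 in IR, and the accessory members had -1.59 and -1.43. As a share of the summed CPM of the 36 genes, the N module held 33.0 ± 0.12% (SD, n = 4) in MISham and 30.4 ± 0.36% in MI, and 33.0 ± 0.28% in IRSham and 30.9 ± 0.91% in IR. The distal arm went the other way, from 17.2 ± 0.08% to 19.8 ± 0.32% in MI and from 17.8 ± 0.30% to 19.5 ± 0.77% in IR. The Q module held between 22.7% and 23.2% in all 4 group means. These shares weight each gene by its reads, and their differences were not tested. Across the 36 genes the MI fold change was more negative where the sham CPM was higher (Pearson's r = -0.75 and Spearman's rho = -0.71 across 36 genes), while in IR they were -0.28 and -0.27, or -0.45 and -0.38 across the 35 genes other than Ndufb9. This describes genes that share the same libraries, and a longer gene collects more reads.

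MI and IR were then compared with each other through the difference of their responses. The fall was the larger one in MI for 29 of the 36 genes, and the difference was positive for 7. Over all genes tested, 10770 of 19741 differences were positive. No member was called by edgeR, beside 0.192% of all genes. An unadjusted p under 0.05 was given to 5 members by edgeR and to 8 by DESeq2, which also called none. How many of all genes had such a p was not counted. With 1 library left out edgeR still called none, but the number with an unadjusted p under 0.05 was 14 without IR library 2, 13 without IR library 4, 12 without MI library 3, 3 without IRSham library 4, 2 without MI library 1 or 2 and 1 without MISham library 4. The median difference, -0.21, became -0.33 without MI library 3, -0.31 without IR library 2 or 4, -0.14 without MI library 2 and -0.10 without IR library 3. The 6 smallest p-values belonged to Ndufb2, Ndufa11, Ndufb5, Ndufc2, Ndufv2 and Ndufs1. Ndufb2, a small distal subunit, had the smallest, with a difference of -0.57 ± 0.18 (SE; edgeR, adjusted p = 0.166). The others had differences of -0.50 ± 0.20 (Ndufa11), -0.54 ± 0.22 (Ndufb5), -0.36 ± 0.15 (Ndufc2), -0.43 ± 0.20 (Ndufv2) and -0.48 ± 0.24 (Ndufs1). In summed TPM, 22 of 36 differences were negative, while 9608 of all 14323 genes had a positive one. The median difference of the 36 genes was -0.06 in TPM beside -0.21 in counts. The median of all genes was 0.12 in TPM and 0.04 in counts, and relative to it the 36 genes stood at -0.19 and -0.25. Ndufv2 turned to 0.25 in TPM. The count and TPM values of this difference were also 0.5 or more apart for Ndufb2, at -0.06 in TPM, and for Ndufb9, at 1.05 ± 0.86 (SE) in counts and -0.09 in TPM.

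Between the sham groups, MISham and IRSham, no member was called by edgeR, beside 3.20% of all genes, and none had an unadjusted p under 0.05 by edgeR over all 16 libraries or by DESeq2. With edgeR fitted to the 8 sham libraries alone, 13 had one and none was called (lowest adjusted p = 0.0732). How many of all genes had one was not counted. In that fit 33 of the 36 differences were toward MISham, beside 8694 of 17488 genes. Over all 16 libraries 30 were, beside 8542 of 19741 genes. The largest differences were those of Ndufs1 (0.23 ± 0.17, SE), Ndufs4 (0.21 ± 0.14), Ndufa10 (0.20 ± 0.16) and Ndufv2 (0.20 ± 0.14), all toward MISham. Ndufs8 (0.18 ± 0.13) and Ndufa11 (0.17 ± 0.14) completed the 6 with the smallest p. In summed TPM no member was called by limma, and 16 of the 36 differences were toward MISham, beside 3957 of 14323 genes. The largest TPM differences were those of Ndufab1 (0.52 ± 0.31, SE, beside 0.07 in counts), Ndufc1 (0.40 ± 0.26) and Ndufv2 (-0.32 ± 0.20). The Ndufab1 values of counts and TPM stayed more than 0.5 apart after subtraction of the medians of all genes.

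The transcript table gave the same direction with smaller numbers. TPM are transcript abundances scaled to one fixed sum, and the members' transcripts were added per gene. In MI, 34 of the 36 genes were lower by limma on log2(TPM + 1), beside 12.8% of all genes, and 1, Ndufa13, was higher, beside 66.3%. In IR, 33 were lower, beside 12.0% of all genes, and none was higher, beside 62.4%. A fall of at least 2-fold was called for 13 genes in MI, beside 4.58% of all genes, and for 11 in IR, beside 3.53%. In counts scaled by library size alone it was called for 33 in MI, beside 11.8%, and 28 in IR, beside 8.82%. The median log2 fold change in TPM was -0.89 in MI and -0.84 in IR. The median of all genes in this measure was 0.70 in MI and 0.57 in IR, and relative to it the 36 genes stood at -1.59 and -1.42, close to -1.70 and -1.50 in counts. By group means on the log2 scale, the summed TPM left 49.7% of the sham level in MI and 53.6% in IR. Both tables hold relative amounts, so the absolute loss of these mRNAs is not measured.

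Counts and TPM gave fold changes that differed by 0.5 or more for 31 of the 36 genes in MI and 30 in IR. After subtraction of the medians of all genes, 3 such genes remained in MI, Ndufa13, Ndufv2 and Ndufb9, and 2 in IR, Ndufa13 and Ndufb9. Ndufa13, an accessory membrane subunit, carried 20.2 to 30.4 CPM in MI and 77.7 to 91.6 CPM in MISham, yet its only matched transcript reached 1.41 to 2.00 TPM in MI and 0.50 to 0.68 TPM in MISham. Its log2 fold change was -1.77 in counts and 0.70 in TPM (limma, adjusted p = 0.00592). The median of all genes was also 0.70 in TPM, and relative to it Ndufa13 stood at 0.002. Ndufa13 was nearly lost in the transcript table, with the lowest mean of the 36 genes (1.04 TPM). In counts it held 1396 to 1896 reads in MI and 1666 to 2075 in MISham. Ndufv2 carried 121 to 171 CPM in MI and 424 to 532 CPM in MISham but 16.0 to 21.2 TPM and 16.9 to 35.4 TPM, and its TPM fold change of -0.31 was not called (limma, adjusted p = 0.158). For these genes the direction or the call thus depends on the table read, with Ndufa13 near the floor in TPM and Ndufb9 in counts. The other 33 were called lower in MI in both tables. Ndufab1 and Ndufc1, lower in IR by counts, did not pass in TPM, with limma adjusted p-values of 0.0906 and 0.0658.

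**Figure D4:**
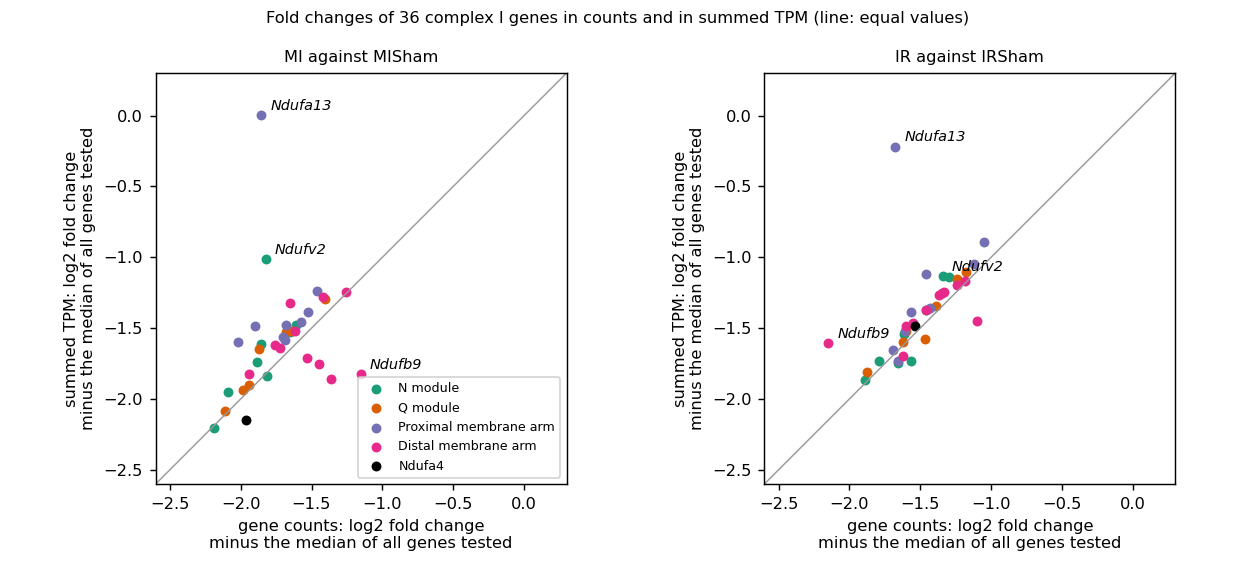
Log2 fold changes of the 36 genes in counts (x axis) and in summed TPM (y axis), each after subtraction of the median of all genes tested, for MI (left) and IR (right); colours mark the arms, and the line marks equal values. Most genes lie near the line; Ndufa13 lies far above it in both panels, Ndufv2 above it in MI, and Ndufb9 below it in MI and above it in IR.

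Processed pseudogenes of members also drew reads. Ndufs6b, a processed pseudogene of Ndufs6, held 95 to 138 reads in MI and 66 to 139 in MISham but 0 to 1 in IR and 0 in all IRSham libraries. Ndufab1-ps held 662 to 952 reads in MI and 1085 to 1366 in MISham but 10 to 105 in IR and 30 to 122 in IRSham. Ndufb4c held 64 to 87 reads in MI and 52 to 83 in MISham but 2 to 18 in IR and 6 to 27 in IRSham. In counts these copies were thus higher in both groups of the MI experiment than in both groups of the IR experiment, and the cause was not tested. The TPM table showed no such split: Ndufs6b was listed at 0 and Ndufab1-ps at 0 to 1.32 TPM, while Ndufb4c held 373 to 545 TPM in MI, 801 to 834 in MISham, 346 to 537 in IR and 762 to 810 in IRSham. Ndufb4 itself held 37.6 to 82.5 TPM over the 16 libraries, so the TPM table gave more to the copy than to the gene. Ndufs6 itself held 4310 to 5820 reads in MI and 4896 to 6247 in MISham, far more than its copy. Ndufab1 held 2319 to 3050 reads in MI and 2431 to 2481 in MISham. Ndufb4 held 3828 to 4969 reads in MI and 4284 to 4774 in MISham, far more than its copy in counts. The levels of Ndufab1 and, to a smaller degree, Ndufs6 are uncertain for these reasons, and the TPM level of Ndufb4 most of all.

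Transcript shares, the percentage of a gene's summed annotated TPM held by each transcript, could be tested for 15 members with 37 transcripts. Calls needed an adjusted p under 0.05 by limma and a change of at least 10 points. In MI, 2 of the 37 transcripts were called, both of Ndufa4, which is near the 5.66% called among all transcripts tested. None was called in IR, beside 3.51%. At an unadjusted p under 0.05, limma gave 13 transcripts in MI and 9 in IR. How many of all transcripts tested had such a p was not counted, so these numbers have no share to be read against. Ndufa4-204 held 32.7%, 46.8%, 49.2% and 46.2% of Ndufa4 TPM in MI and 78.0%, 78.8%, 76.9% and 84.3% in MISham. In IR it held 65.5%, 81.7%, 83.2% and 84.5%, against 84.5%, 80.2%, 79.6% and 68.2% in IRSham. All MI libraries thus lay below all other libraries, while IR and IRSham overlapped.

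Its share fell by 35.8 points in MI (SE 4.81; limma, adjusted p = 0.000576) and was 0.61 points apart in IR (SE 4.81; limma, adjusted p = 0.967). Ndufa4-205 rose in step, from 14.8% to 22.3% in the MISham libraries to 49.3% to 65.7% in the MI libraries. That was a change of 35.3 points (limma, adjusted p = 0.000583). No other Ndufa4 transcript averaged above 13.3 TPM in any group, so the 2 shares nearly mirror each other. Their 2 calls thus describe 1 shift. In TPM, Ndufa4-204 averaged 347 ± 108 (SD, n = 4) in MI and 1681 ± 107 in MISham, whereas Ndufa4-205 averaged 425 ± 41.4 and 418 ± 66.1, on a scale where the median gene stood 0.70 higher (log2) in MI. Per GENCODE M21 both transcripts have the same coding exons, of 246 bases, and differ in their untranslated parts, with 44 bases before and 162 after the coding region in Ndufa4-204 and 118 before and 246 after in Ndufa4-205. The difference between the MI and IR responses was -36.4 points (SE 6.80) for Ndufa4-204 and missed the threshold (limma, adjusted p = 0.0866), as did every transcript of every gene (0.00%). Without IR library 1, which held the lowest Ndufa4-204 share of its group, this difference was -40.8 points and passed (limma, adjusted p = 0.0244). Over all libraries 3 transcripts of members had an unadjusted p under 0.05 by limma for the difference, again with no count over all transcripts.

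**Figure D5:**
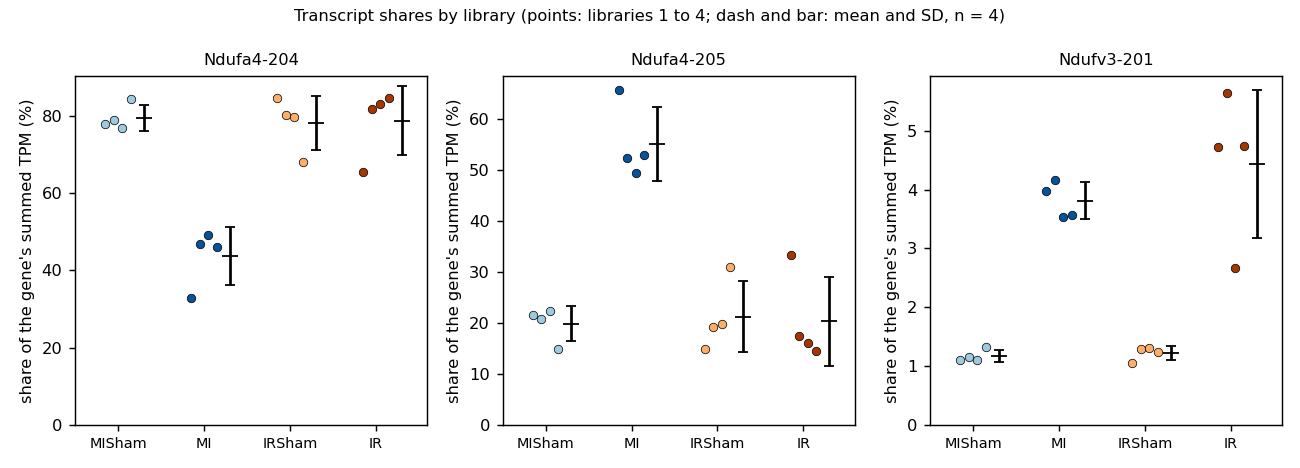
Share of the gene's summed annotated TPM held by Ndufa4-204, Ndufa4-205 and Ndufv3-201, by group; points are libraries, and the dash with its bar is the mean and SD of 4 libraries. The MI libraries stand apart from the other 3 groups for both Ndufa4 transcripts; for Ndufv3-201 both injured groups lie above both sham groups.

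Ndufv3 is known in a short and a long protein form, and its long transcript was looked at after its values had been seen, so its shares are given with no test. Ndufv3-201, with 1404 annotated coding bases against 312 in the main transcript Ndufv3-202, held 3.53% to 4.17% of Ndufv3 TPM in MI and 1.10% to 1.32% in MISham. In IR it held 2.67% to 5.65%, against 1.05% to 1.31% in IRSham. The injured and sham libraries did not overlap in either comparison, and how many of all transcripts behaved so was not counted. The TPM of Ndufv3-201 were 11.5 ± 0.51 (SD, n = 4) in MI and 7.78 ± 0.37 in MISham, while those of Ndufv3-202 were 289 ± 29.0 and 656 ± 37.5. On this scale the median gene stood 0.70 higher (log2) in MI, so the TPM of Ndufv3-201 show no rise beyond that of the median gene.

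Because the members fell together, their promoters were read for short motifs of 4 factors known to act on respiratory chain genes. RefSeq windows on GRCm38.p6, from 250 bases before to 50 bases after a start, were held for 33 of the 36 genes, in 35 windows of 300 bases. Both strands were searched, and the letters were chosen among 13 strings that had all been looked at. The YY1 motif AAGATGGCG stood in 5 of the 35 windows (14.3%), beside 1.40% of all 32851 windows and 1.83% of protein-coding ones. The NRF1 motif GCGCATGC stood in 3 windows (8.57%), beside 2.71% of all windows, and the GABPA motif CCGGAAGT in 1 (2.86%), beside 3.89%. The ERR alpha motif TCAAGGTCA stood in none of the 35, beside 0.423% of all windows. No motif therefore covers most members. The matches are given on the gene's strand, 5′ to 3′, with the motif or its reverse complement in capitals, since these letters are what the counts rest on.
Ndufs7 (YY1 motif, chr10:80249463-80249491, + strand): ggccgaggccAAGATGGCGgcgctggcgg
Ndufa9 (YY1 motif, chr6:126849097-126849125, - strand): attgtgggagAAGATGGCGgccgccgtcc
Ndufc1 (YY1 motif, chr3:51408915-51408943, - strand): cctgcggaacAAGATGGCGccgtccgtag
Ndufs4 (YY1 motif, chr13:114388045-114388069, - strand): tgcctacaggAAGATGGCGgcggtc
Ndufs6 (YY1 motif, chr13:73328433-73328459, - strand): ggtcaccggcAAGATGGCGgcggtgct
Ndufa6 (NRF1 motif, chr15:82354357-82354384, - strand): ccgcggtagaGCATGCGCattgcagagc
Ndufa8 (NRF1 motif, chr2:36049329-36049356, - strand): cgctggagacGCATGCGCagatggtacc
Ndufa11 (NRF1 motif, chr17:56717692-56717719, + strand): cctgcactgcGCGCATGCgcgcacgcct
Ndufs3 (GABPA motif, chr2:90904704-90904731, - strand): gcacatttccACTTCCGGtccgtgccct
The 5 YY1 matches begin 22 to 35 bases after the start, and in all 5 the letters ATG inside the motif are the start codon that GENCODE M21 annotates. The Ndufa11 stretch also holds the NRF1 motif on the other strand, shifted by 2 bases. A match describes letters only; binding was not measured.

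The other genes of the complex and of the respiratory chain fell as well. Of 7 mitochondrially encoded complex I genes, mt-Nd1, mt-Nd2, mt-Nd4 and mt-Nd5 entered the test, and mt-Nd3, mt-Nd4l and mt-Nd6 were listed at 0 in every library. All 4 were lower in both injuries, with medians of -2.04 in MI and -1.72 in IR. The largest MI changes were those of mt-Nd4 (-2.45 ± 0.43, SE) and mt-Nd5 (-2.14 ± 0.21), and the smallest those of mt-Nd1 (-1.78) and mt-Nd2 (-1.94). Complex I assembly factors help to build the complex and are not part of it. Among 18 of them, 17 were lower in MI and 18 in IR, with medians of -0.92 and -0.77, beside -1.61 and -1.47 for the 36 subunit genes. Dmac2 (-1.51) and Ecsit (-1.42) changed most in MI, and Ndufaf2 (-0.37) and Dmac1 (-0.16; edgeR, adjusted p = 0.0541) least.

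Nuclear subunits of complexes II to V numbered 41, of which 39 were lower and 1 was higher in MI, and 40 were lower and 1 was higher in IR, with medians of -1.77 and -1.45. Cox8b (-2.58 ± 0.41, SE) and Cox6a2 (-2.49 ± 0.28), muscle forms of complex IV subunits, changed most in MI. Their widely expressed counterparts changed least or rose: Cox8a had -0.02 ± 0.07 (edgeR, adjusted p = 0.787) and Cox6a1 0.62 ± 0.07. The 36 complex I genes, at -1.61 and -1.47, lay close to these medians.

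Of 9 regulators of respiratory genes, 7 were lower and 2 higher in MI, and 7 lower and 1 higher in IR. Ppargc1a, the coactivator of mitochondrial biogenesis, fell from 156 to 26.9 CPM in MI (log2 fold change -2.54 ± 0.33, SE; edgeR, adjusted p = 1.19e-05) and from 146 to 33.3 CPM in IR (-2.13 ± 0.33). Esrrb, an estrogen-related receptor, had -2.25 ± 0.24 in MI and -1.81 ± 0.24 in IR. Yy1 (0.17 ± 0.06) and Gabpa (-0.42 ± 0.06) changed least in MI. Nrf1, the factor of the motif above, rose by 0.57 ± 0.08 in MI and 0.54 ± 0.08 in IR.

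Cardiomyocyte markers moved in the same direction as the complex I genes. All 8 cardiomyocyte markers were lower in both injuries, with medians of -2.20 in MI and -1.78 in IR. The single markers ranged from -2.79 to -0.98 in MI and from -2.34 to -1.04 in IR. Their summed level was 12128 to 22488 CPM in MI and 64678 to 78031 in MISham, and 13871 to 27447 in IR and 70239 to 75577 in IRSham. IR libraries 1 and 3 were above libraries 2 and 4 here too, and MI library 3 was the highest of its group. The members' summed CPM equalled 19.3 ± 2.56% (SD, n = 4) of that of these markers in MI and 14.3 ± 0.48% in MISham, and 17.2 ± 1.63% in IR and 12.8 ± 0.60% in IRSham. These percentages weight each marker by its reads and depend on the markers chosen. The complex I medians, -1.61 in MI and -1.47 in IR, lay inside the range of the single markers. In bulk tissue, fewer cardiomyocytes and less RNA per cardiomyocyte cannot be told apart.

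Macrophage, fibroblast, neutrophil and lymphocyte markers were mostly higher in MI, and the other lists were mixed. All 8 macrophage and monocyte markers were higher in MI and 7 in IR, from 463 to 1133 CPM in MISham to 2170 to 3083 in MI and from 851 to 1435 in IRSham to 2453 to 4433 in IR. Fibroblast markers were higher for 5 of 7 in MI, with 1 lower, and for 6 of 7 in IR, with sums of 18920 to 23373 CPM in MI, 2294 to 8343 in MISham, 23431 to 27927 in IR and 5551 to 8199 in IRSham. Neutrophil markers were higher for 5 of 6 in MI, with sums of 182 to 422 CPM against 29.6 to 110, and for 2 of 6 in IR, with 92.5 to 177 against 30.6 to 111. Lymphocyte markers were higher for 5 of 6 in MI and 2 of 6 in IR, all at sums of 2.40 to 10.1 CPM. Among 5 endothelial markers, 3 were higher and 1 lower in MI and 1 higher and 2 lower in IR, at sums of 818 to 1343 CPM in all groups. Among 5 smooth muscle and pericyte markers, 2 were higher and 3 lower in MI and 1 higher and 3 lower in IR, at sums of 839 to 1358 CPM.

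Of the 4 atrial markers, Sln was at 0 in all 16 libraries and Myl7 in 8, and the sum, of 151 to 460 CPM in the injured and 18.7 to 61.7 in the sham libraries, came mainly from Nppa, which injured ventricle is also known to express. Of the 5 erythroid markers none was called in MI and 1 was higher in IR, at sums of 185 to 1331 CPM over all groups. The part of these cell types in the fall of the complex I genes was not tested.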

How the data were processed

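Poly(A) RNA of mouse heart was sequenced in 16 short-read libraries, 4 each of MI, MISham, IR and IRSham; 4 long-read libraries were not analysed here. Per the submitters' processing notes, the tools were kallisto 0.50.1, featureCounts 2.0.1, HISAT2 2.2.1 and SAMtools 1.7, and the genome build was GRCm39; their roles, strand setting and annotation release are not given in the sources used here. The gene table was deposited by the authors as raw counts per gene, with no normalization. The transcript table was deposited by the authors as TPM per transcript, and 2 of its columns that name no sample were not used.

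Symbols were matched by Ensembl ID through GENCODE M21 (GRCm38), and no file coordinates were used. In R 4.3.3, edgeR 4.0.16 tested genes left by filterByExpr (minimum count 10, minimum total 15) with TMM factors, 1 mean per group over all 16 libraries and a robust quasi-likelihood fit. Standard errors come from the fold change and the F statistic. Adjusted p-values are Benjamini-Hochberg values over all genes, called under 0.05. limma 3.58.1 tested log2(summed TPM + 1) for genes with a mean of at least 1 TPM, and transcript shares for genes with a mean of at least 5 TPM and at least 2 transcripts at a mean share of 5% or more, called at 10 points or more. DESeq2 1.42.0, other scalings, no filter, the contrast's groups alone, a replicate block, left-out libraries and TPM were alternatives. The code was tested on simulated data.

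Values by library are given for Ndufa4 and, in each arm, for the member with the highest summed TPM and those with the largest and smallest MI change; of other lists, the 2 largest and 2 smallest MI changes are named. Of the genes whose counts and TPM disagreed, those still apart after subtraction of medians are named. Nrf1, the transcripts of Ndufv3 and the pseudogenes were named after their values were seen. Members and lists were chosen with earlier results of these data known, and so were the motif letters. Promoter sequences are RefSeq's (GRCm38.p6).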

Additional observations from a re-analysis of the deposited data

Results flagged for a closer look

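In IRSham, library 2 held 289.3 CPM of Ndufb5, a distal membrane arm gene, while the other 3 libraries held 241.3 to 245.0 CPM. The gap to the nearest library took up 0.922 of the group's range, above Dixon's 95% critical value for 4 values. It was the 1 value so marked among 56 sets of 4 libraries examined, and chance marks about 1 set in 20. The same library held the highest IRSham value for 27 of the 36 genes, and its summed level of 9961 CPM was the highest of its group. Without it the Ndufb5 change in IR stayed on the same side of the threshold.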

How the results depend on the processing

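In MI 35 genes and in IR 36 genes were called lower under each other normalization, DESeq2, no filter and the replicate block, and without each library in turn; with the contrast's groups alone the MI count was 36. In the summed TPM 34 and 33 were lower and 1, Ndufa13, was higher in MI with either pseudocount. Ndufa13 changed sign there, to 0.70 (pseudocount 1) and 1.29 (pseudocount 0.1) in MI and to 0.36 and 0.62 in IR. The medians of all genes were 0.70 and 0.83 in MI and 0.57 and 0.67 in IR. Ndufv2 changed sign as well, to 0.25 and 0.26 in the difference of responses and to -0.32 and -0.33 between shams. The log2 ratio of the summed level, -1.76 in MI and -1.53 in IR, became -1.45 and -1.24 with library size alone, -1.01 and -0.90 in TPM, and -0.997 and -0.88 in TPM of protein-coding transcripts; the cause was not tested. Library size alone moved the median of all genes to 0.39 in MI and 0.32 in IR. Transcripts of members called in the difference of responses ranged from 0 to 2 with 1 library left out, the 2 being those of Ndufa4 without IR replicate 1; in MI the count ranged from 2 to 3. The IR change in share ranged from -2.70 to 5.02 points for Ndufa4-204 and from -5.26 to 2.34 for Ndufa4-205. Same-numbered libraries of the groups compared had correlations of -0.15 to 0.06. The same number was the closest sham match for MI libraries 1 and 4 and IR libraries 1 and 2, and not for the others. Such low correlations cannot show whether the numbers mark pairs. With the replicate block 35, 36, 0 and 0 members were called in the 4 contrasts. Ndufb9 had 0 to 21 reads a library, in the deepest libraries too.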
